A study of Mus musculus with 9 samples.

Results

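The genes of the mouse mitochondrial genome were examined in the epididymal adipose tissue, a visceral white fat depot, of mice losing weight. The members were all rows of the gene count table whose gene name begins with mt-, which gave 37 of 56748 genes: 13 protein-coding genes, 2 rRNA genes and 22 tRNA genes. RNA sequencing was performed on wild-type (WT) male C57BL/6J mice that were 8 weeks old when high-fat diet (HFD) feeding began. All mice had received HFD for 8 weeks. The Pre group was sampled at that point, the WL1 group after 1 further week on standard diet (SD) and the WL2 group after 2 further weeks on SD, with 3 libraries per group and 9 in all. There was no group kept on HFD or on SD throughout, so the effects of diet change, weight loss and elapsed time cannot be told apart, and since the sources used here do not say how many mice went into each library, the p-values measure the spread between these libraries.

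Mitochondrial DNA is a small circular genome present in many copies per cell. It encodes subunits of the respiratory chain complexes I, III and IV and of ATP synthase (complex V), together with the rRNAs and tRNAs of the mitochondrial ribosome, whereas complex II and most subunits of the other complexes are encoded in the nucleus. Each strand is transcribed as a long precursor that is cut at the tRNAs into separate RNAs, so the RNAs of one precursor begin from one promoter but differ in stability. In white adipocytes, mitochondria supply ATP and the carbon used for fatty acid and triglyceride synthesis.

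Library totals ranged from 16434400 to 22729100 counts, given to 6 digits. Levels are given as CPM, the counts per 1000000 counts of the library after TMM scaling, and 18510 genes that reached 0.5 CPM in at least 1 library were tested together. Adipoq, the adipocyte hormone adiponectin, was present at 1676 to 3459 CPM in every library, and the 10 epididymis markers summed to 0.06 to 0.42 CPM, with Lcn9, Defb20, Defb21, Adam28 and Spinkl at 0. Pre replicate 2 stood apart from the other 8 libraries: its 10 T and B cell markers summed to 213 CPM, against 7.43 to 19.7 CPM elsewhere. Calls on the mitochondrial genes against Pre that were lost or gained without that library are therefore stated.

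The 13 mRNA genes fell into a high and a low set when compared per kilobase of gene length. As means of the 9 libraries, the complex IV catalytic subunit mt-Co1 was at 6689 CPM per kb, the complex III subunit mt-Cytb at 4051, and the complex I subunits mt-Nd1 at 3228, mt-Nd2 at 2415, mt-Nd4 at 1623, mt-Nd6 at 1281 and mt-Nd5 at 1138 CPM per kb. The other 6 were mt-Co2 and mt-Co3 of complex IV, mt-Atp6 and mt-Atp8 of complex V, and mt-Nd3 and mt-Nd4l of complex I, and they ranged from 3.06 CPM per kb for mt-Atp8 to 113 CPM per kb for mt-Co2. These 6 follow one another on mitochondrial DNA, and all of them lie between positions 6390 and 11042, a stretch of 4653 bases that spans a series of nuclear copies on chromosome 1. The 7 annotated copies in this series are unprocessed pseudogenes, and they aligned to their mitochondrial partners over 4137 bases with 4136 identical. The ends of mt-Co2 (MT:7637-7696, plus strand) and of its copy Gm28661 (chr1:24614885-24614941, minus strand) show this identity. They are printed 5′ to 3′ from the GENCODE M21 transcripts on GRCm38, with the last 3 bases of mt-Co2, its stop codon, in capitals; the annotated copy ends just before them.
mt-Co2: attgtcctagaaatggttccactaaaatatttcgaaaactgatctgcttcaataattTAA
Gm28661: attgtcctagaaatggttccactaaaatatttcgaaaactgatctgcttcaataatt

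The single base at which the aligned pairs differed lies near the start of the series, where the copy Gm29216 (chr1:24616129-24616188, minus strand) aligns within mt-Co1 (MT:6390-6449, plus strand). It is shown in capitals in both sequences, from the same source.
mt-Co1: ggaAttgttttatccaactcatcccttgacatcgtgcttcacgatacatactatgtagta
Gm29216: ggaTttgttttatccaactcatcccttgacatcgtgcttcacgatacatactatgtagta

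Reads from such stretches cannot be assigned to one place by sequence alone, and the sources used here do not say how the authors counted reads with several matches. Of the 100-base windows of mt-Co2, 99.5% also occurred in a nuclear transcript. The share was also 99.5% for mt-Atp6, 99.9% for mt-Co3, 97.6% for mt-Nd3 and 98.5% for mt-Nd4l, against 60.8% for mt-Nd4, 30.8% for mt-Co1, 3.19% for mt-Nd2 and 0% for mt-Nd1, mt-Nd5, mt-Nd6 and mt-Cytb. The windows of mt-Nd2 were found in Gm13339, and some windows of mt-Co1 and mt-Co2 in Gm13340 and Gm13341. These transcripts are not among the 7 chromosome 1 copies. No window of mt-Atp8 was found in a nuclear transcript, and no copy is annotated over it, although it lies between annotated copies. The copy Gm28661 carried 0.945 times the CPM of mt-Co2 as means of the 9 libraries, and mt-Co2 and Gm28661 together reached 87.7 to 273 CPM. The levels of the 6 low genes, and of the part of mt-Co1 and mt-Nd4 that is copied, are therefore uncertain, and the cause of their low counts was not tested.

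**Figure D1:**
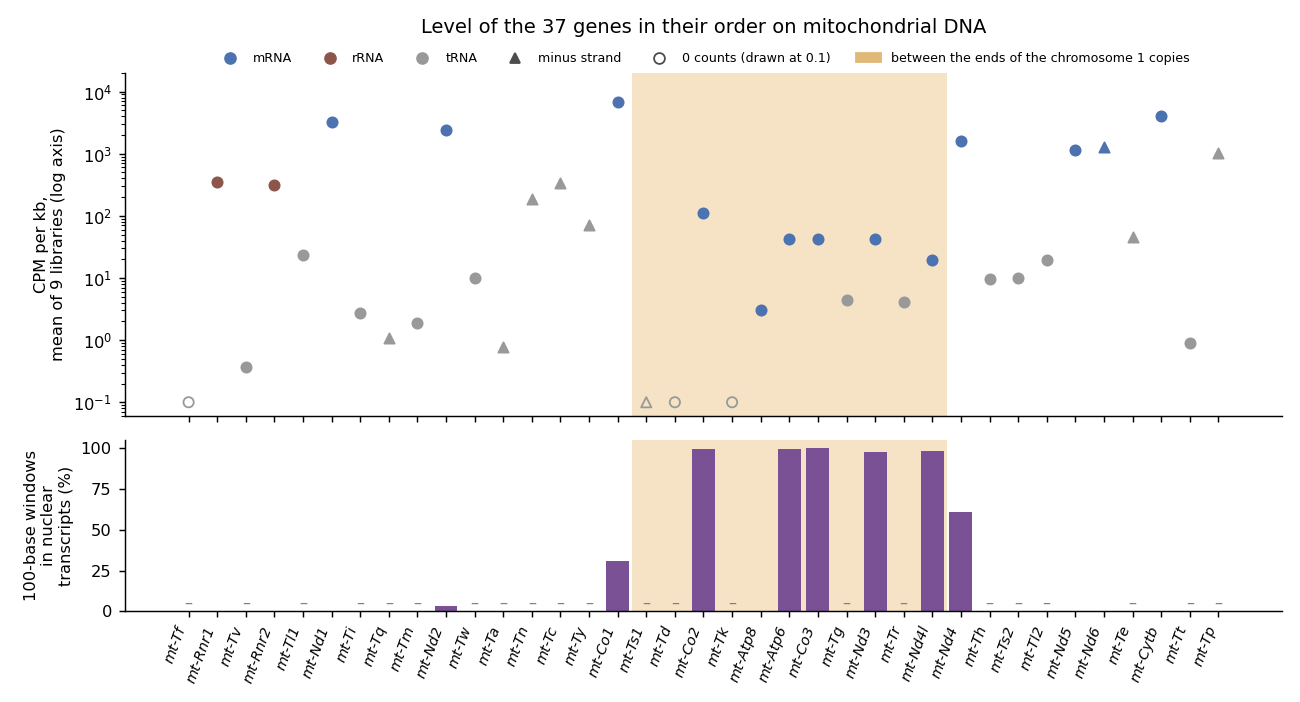
The upper panel shows the level of each of the 37 genes as CPM per kb (mean of 9 libraries, log axis) in their order on mitochondrial DNA, and the lower panel the percentage of 100-base windows of each gene found in a nuclear transcript (a dash marks genes shorter than 100 bases). The 6 mRNA genes in the shaded stretch, between the ends of the chromosome 1 copies, lie between 3.06 and 113 CPM per kb, under the 1138 to 6689 CPM per kb of the other 7.

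The mitochondrial mRNAs took a smaller share of the RNA after 1 week of SD than before it, and after 2 weeks their share lay between those of WL1 and Pre. The 13 genes together took 3.28% ± 0.190 (SD, n = 3) of all counts in Pre, 1.87% ± 0.0844 in WL1 and 2.50% ± 0.299 in WL2. The single libraries ranged from 3.07 to 3.44% in Pre, from 1.78 to 1.94% in WL1 and from 2.20 to 2.80% in WL2, so the 3 groups did not overlap in this share. At WL1, 10 of the 13 mRNA genes were lower than in Pre by edgeR's quasi-likelihood test (Benjamini-Hochberg adjusted p under 0.05 over all genes tested), where 4.69% of all genes tested were lower. In 11 of the 13, no WL1 library reached the lowest Pre library, which held for 13.9% of all genes tested in that direction. The median log2 fold change of the 13 was -1.02, against 0.02 over all genes. At WL2, 8 of the 13 were lower than in Pre, where 6.66% of all genes were. The libraries of 8 genes, not all of them among those called, lay wholly under those of Pre, where 15.8% of all genes did. The median log2 fold change was then -0.61, against 0.01 over all genes. Of the 7 genes of the high set, 5 were called lower at WL1 and 5 at WL2. Their median log2 fold changes were -0.85 and -0.51. Both comparisons use the same Pre libraries. The counts rest unequally on single libraries: the 1-week count stayed between 7 and 11 whichever library was left out, while the 2-week count fell from 8 to as few as 2. Without Pre replicate 2 the counts were 11 and 3. In tissue RNA, fewer cells of a type and less of these RNAs per cell cannot be told apart.

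**Figure D2:**
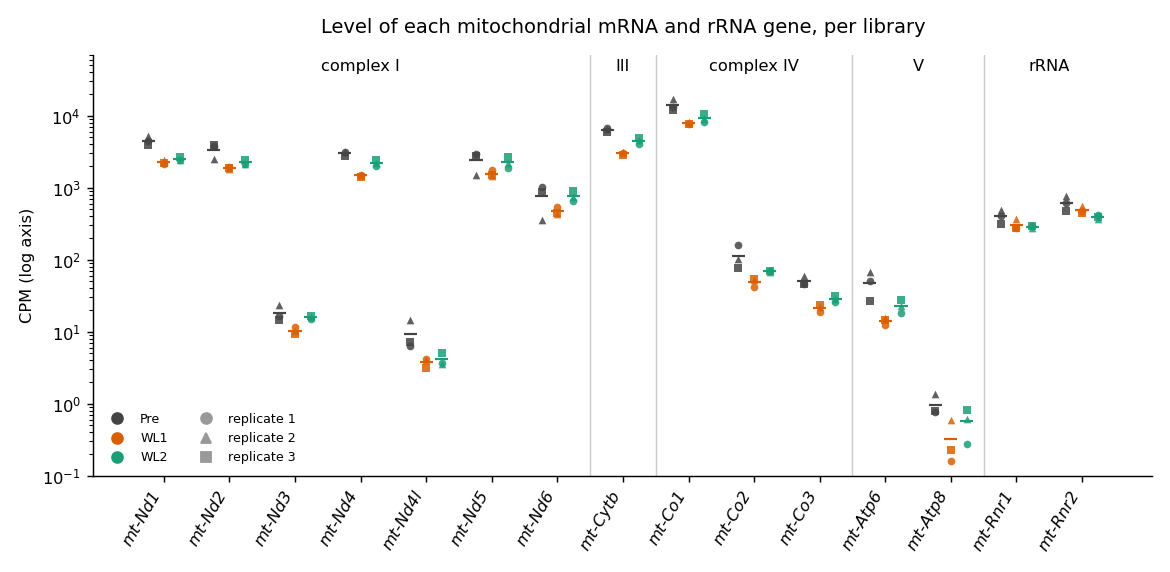
Each point is the level of one mitochondrial mRNA or rRNA gene in one library in CPM (log axis), coloured by group with marker shape giving the replicate, and the horizontal lines are group means (n = 3). In WL1 the points of mt-Cytb, mt-Nd1, mt-Nd4, mt-Co1 and mt-Co3 lie under all of their Pre points, whereas Pre replicate 2 (triangle) is as low as WL1 for mt-Nd5 and mt-Nd6.

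Complex I, which takes electrons from NADH, has 7 mitochondrially encoded subunits, all in its membrane arm. Of these, 5 were lower at WL1 and 4 at WL2. mt-Nd1 (MT:2751-3707) was at 4481, 5143 and 3895 CPM in the Pre libraries, at 2155, 2394 and 2186 CPM in WL1 and at 2442, 2454 and 2650 CPM in WL2. No library of either weight-loss group reached the lowest Pre library. Relative to Pre, mt-Nd1 changed by a log2 fold change of -1.01 ± 0.13 (SE) at WL1 (adjusted p = 0.00168, edgeR) and -0.84 ± 0.13 at WL2 (adjusted p = 0.00242). mt-Nd4 (MT:10167-11544) was at 3169, 3110 and 2775 CPM in Pre, at 1518, 1520 and 1420 CPM in WL1 and at 1983, 2220 and 2412 CPM in WL2. Its groups did not overlap, with WL2 between the other 2. Its log2 fold change was -1.02 ± 0.12 at WL1 (adjusted p = 0.00105, edgeR) and -0.45 ± 0.11 at WL2 (adjusted p = 0.0336). The 2-week call of mt-Nd4 was lost when either of Pre replicates 1 and 2, WL1 replicate 2 or any WL2 library was left out. mt-Nd2 (MT:3914-4951) was at 3771, 2528 and 3872 CPM in Pre, at 1932, 1839 and 1885 CPM in WL1 and at 2133, 2148 and 2452 CPM in WL2. Pre replicate 2 was its lowest Pre library and still above every WL1 and WL2 library. For mt-Nd2 the log2 fold change was -0.85 ± 0.16 at WL1 (adjusted p = 0.0134, edgeR), a call lost without Pre replicate 1 or WL1 replicate 2 or 3. It was -0.60 ± 0.16 at WL2 (adjusted p = 0.0418), a call lost when any library other than Pre replicate 2 was left out.

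The low complex I mRNAs mt-Nd3 and mt-Nd4l, both within the copied stretch, were also lower at WL1. mt-Nd3 (MT:9459-9806) was at 14.6 to 23.8 CPM in Pre, 9.33 to 11.6 CPM in WL1 and 15.2 to 16.6 CPM in WL2, so that WL2 lay inside the Pre range. Its log2 fold change was -0.82 ± 0.18 at WL1 (adjusted p = 0.0252, edgeR; not called without Pre replicate 1 or any one WL1 library) and -0.20 at WL2. Without Pre replicate 2, its highest Pre library, the log2 fold changes were -0.59 (still called) and 0.03. mt-Nd4l (MT:9877-10173) was at 6.25, 14.6 and 7.25 CPM in Pre, at 4.23, 4.04 and 3.15 CPM in WL1 and at 3.72, 3.57 and 5.10 CPM in WL2. Its highest Pre value was in replicate 2, and without that library its calls were lost in both comparisons (log2 fold change -0.82 at WL1 and -0.71 at WL2, against -1.30 and -1.18 with it). The 1-week call of mt-Nd4l was also lost without any one WL1 library or WL2 replicate 2, and the 2-week call without any one WL1 or WL2 library.

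The remaining complex I subunits, mt-Nd5 and mt-Nd6, did not pass the test in any of the 3 comparisons. mt-Nd5 (MT:11742-13565) was at 2959, 1487 and 2741 CPM in Pre, at 1775, 1450 and 1487 CPM in WL1 and at 1907, 2216 and 2662 CPM in WL2. mt-Nd6 (MT:13552-14070, minus strand) was at 1035, 359 and 875 CPM in Pre, at 540, 427 and 444 CPM in WL1 and at 664, 746 and 893 CPM in WL2. For both genes the low Pre value was replicate 2, the library with the high T and B cell marker level; the part of those cells in the value was not tested. Their log2 fold changes at WL1 were -0.61 ± 0.23 for mt-Nd5 (adjusted p = 0.145, edgeR) and -0.68 ± 0.31 for mt-Nd6 (adjusted p = 0.207). Without Pre replicate 2 they were -0.86 (adjusted p = 0.0171) and -1.02 (adjusted p = 0.00782), while over all alternatives the adjusted p ran from 0.0171 to 0.342 and from 0.00782 to 0.491. At WL2 the log2 fold changes were -0.08 ± 0.23 for mt-Nd5 and 0.02 ± 0.31 for mt-Nd6.

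mt-Nd5 and mt-Nd6 are read from opposite strands and overlap by 14 bases at their 3′ ends, in capitals in the printed sequences (GENCODE M21, GRCm38, each 5′ to 3′ on its own strand; mt-Nd5 MT:13532-13565, plus strand; mt-Nd6 MT:13552-13585, minus strand). The sources used here do not give the strand setting of the counting, and without it reads of the overlap cannot be told apart. Reads of the opposite strand over the rest of mt-Nd6 may also be among its counts, which was not tested.
mt-Nd5: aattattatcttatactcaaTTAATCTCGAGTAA
mt-Nd6: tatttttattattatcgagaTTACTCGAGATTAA

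mt-Nd6 is the mRNA gene of the light-strand transcript, whereas the other 12 mRNAs come from the heavy-strand transcript. Without the strand setting, the counts on mt-Nd6 cannot be taken as light-strand RNA alone. The mt-Nd6 share of the mitochondrial mRNA counts was 2.90%, 0.986% and 2.72% in Pre, 2.88%, 2.25% and 2.48% in WL1 and 3.10%, 3.18% and 3.35% in WL2. The 3 WL2 libraries were the highest of the 9 and Pre replicate 2 the lowest. The 3 groups did not differ beyond their spread by the exact permutation test (one-sided, over all 280 ways to divide the libraries) (p = 0.196, adjusted over 2 such tests 0.196; smallest possible p 0.00357). Without Pre replicate 2 the exact p was 0.0393, and it ran from 0.0393 to 0.4 when each library was left out in turn. In Pre replicate 2, mt-Nd5 and mt-Nd2 were also low as shares of the mRNA counts, at 4.09% and 6.95%, and mt-Co1 was high at 46.5%. In the other 8 libraries, mt-Nd5 took at least 7.64%, mt-Nd2 at least 9.16% and mt-Co1 36.8 to 42.6%.

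**Figure D3:**
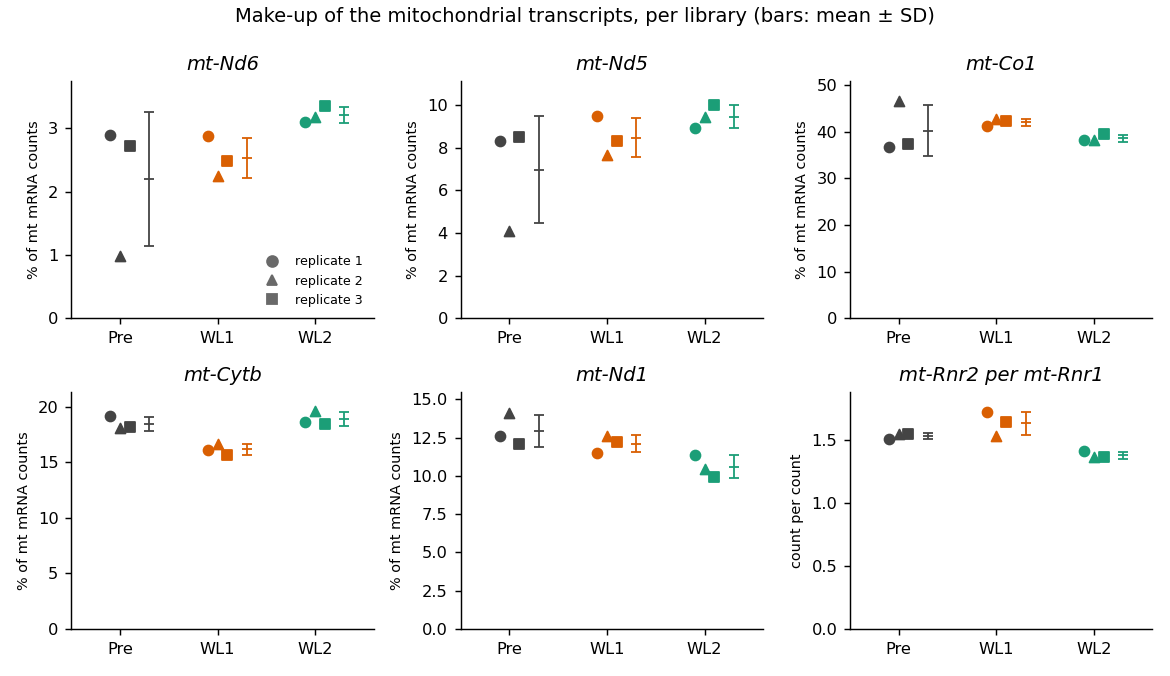
Share of the mitochondrial mRNA counts (%) taken by 5 single genes, and counts of mt-Rnr2 per count of mt-Rnr1, in each of the 9 libraries; points are libraries, marker shape gives the replicate, and bars are mean ± SD (n = 3). The mt-Nd6 and mt-Nd5 shares of Pre replicate 2 (triangles; 0.986% and 4.09%) lie under those of the other 8 libraries and its mt-Co1 share (46.5%) above them, while the rRNA ratio is lowest in WL2.

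Complex III passes electrons from ubiquinol to cytochrome c, and its cytochrome b is the one subunit encoded in mitochondrial DNA. mt-Cytb (MT:14145-15288) was at 6830, 6566 and 5845 CPM in Pre, at 3021, 3159 and 2810 CPM in WL1 and at 3996, 4588 and 4894 CPM in WL2. The 3 groups did not overlap, with WL1 lowest and WL2 between. mt-Cytb had a log2 fold change of -1.10 ± 0.12 at WL1 (adjusted p = 0.000944, edgeR) and -0.51 ± 0.12 at WL2 (adjusted p = 0.0254). Leaving out Pre replicate 1 or 2, or WL2 replicate 1 or 2, ended the 2-week call.

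Complex IV, cytochrome c oxidase, has a catalytic core of 3 mitochondrially encoded subunits, all of which were lower at WL1 and 2 of which were lower at WL2. mt-Co1 (MT:5328-6872), the subunit that holds the oxygen reduction site, was at 13100, 16913 and 11996 CPM in Pre, at 7714, 8087 and 7585 CPM in WL1 and at 8167, 8947 and 10501 CPM in WL2. Every weight-loss library was under every Pre library. The log2 fold change of mt-Co1 was -0.85 ± 0.15 at WL1 (adjusted p = 0.0115, edgeR) and -0.61 ± 0.15 at WL2 (adjusted p = 0.0326), the latter lost without Pre replicate 1 or 2, WL1 replicate 2 or WL2 replicate 1 or 2. mt-Co2 (MT:7013-7696), which receives electrons from cytochrome c, was at 162, 104 and 77.0 CPM in Pre, at 41.3, 51.6 and 53.6 CPM in WL1 and at 69.2, 67.0 and 70.3 CPM in WL2. Its Pre libraries differed by more than those of the other groups but stayed above them. Its log2 fold change was -1.22 ± 0.23 at WL1 (adjusted p = 0.0129, edgeR; not called without WL1 replicate 1) and -0.73 ± 0.23 at WL2 (adjusted p = 0.0691). mt-Co3 (MT:8607-9390), the third core subunit, was at 46.2, 59.4 and 46.1 CPM in Pre, at 18.5, 22.1 and 23.8 CPM in WL1 and at 25.7, 28.4 and 31.0 CPM in WL2. The groups of mt-Co3 did not overlap. Its log2 fold change was -1.23 ± 0.15 at WL1 (adjusted p = 0.00127, edgeR) and -0.83 ± 0.14 at WL2 (adjusted p = 0.00538), and it passed the test in both comparisons under all 20 alternatives.

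Complex V makes ATP with the proton gradient, and its mitochondrially encoded subunits are a part of the proton channel (mt-Atp6) and a small stator subunit (mt-Atp8). mt-Atp6 (MT:7927-8607) was at 50.8, 67.0 and 26.9 CPM in Pre, at 12.3, 15.6 and 14.7 CPM in WL1 and at 18.01, 22.7 and 27.6 CPM in WL2. WL1 lay under Pre, whereas WL2 replicate 3 was above Pre replicate 3. The log2 fold change of mt-Atp6 was -1.76 ± 0.29 at WL1 (adjusted p = 0.0074, edgeR; called under all 20 alternatives) and -1.08 ± 0.28 at WL2 (adjusted p = 0.039), the latter lost when any library other than Pre replicate 3 was left out. mt-Atp8 (MT:7766-7969) had 105 counts in all 9 libraries together, with 0.77 to 1.38 CPM in Pre, 0.16 to 0.60 CPM in WL1 and 0.27 to 0.81 CPM in WL2. At these low counts its log2 fold changes of -1.53 ± 0.61 and -0.77 did not pass the test (adjusted p = 0.161 and 0.437, edgeR).

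The reading frames of mt-Atp8 and mt-Atp6 overlap by 43 bases (MT:7927-7969, in capitals; GENCODE M21, GRCm38, plus strand), so reads that lie there belong to both genes; mt-Atp8 is printed from position 7907 and mt-Atp6 to position 7989.
mt-Atp8: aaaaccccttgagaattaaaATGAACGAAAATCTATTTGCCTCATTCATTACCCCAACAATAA
mt-Atp6: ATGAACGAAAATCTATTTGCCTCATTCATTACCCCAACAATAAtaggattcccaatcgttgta

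**Figure D4:**
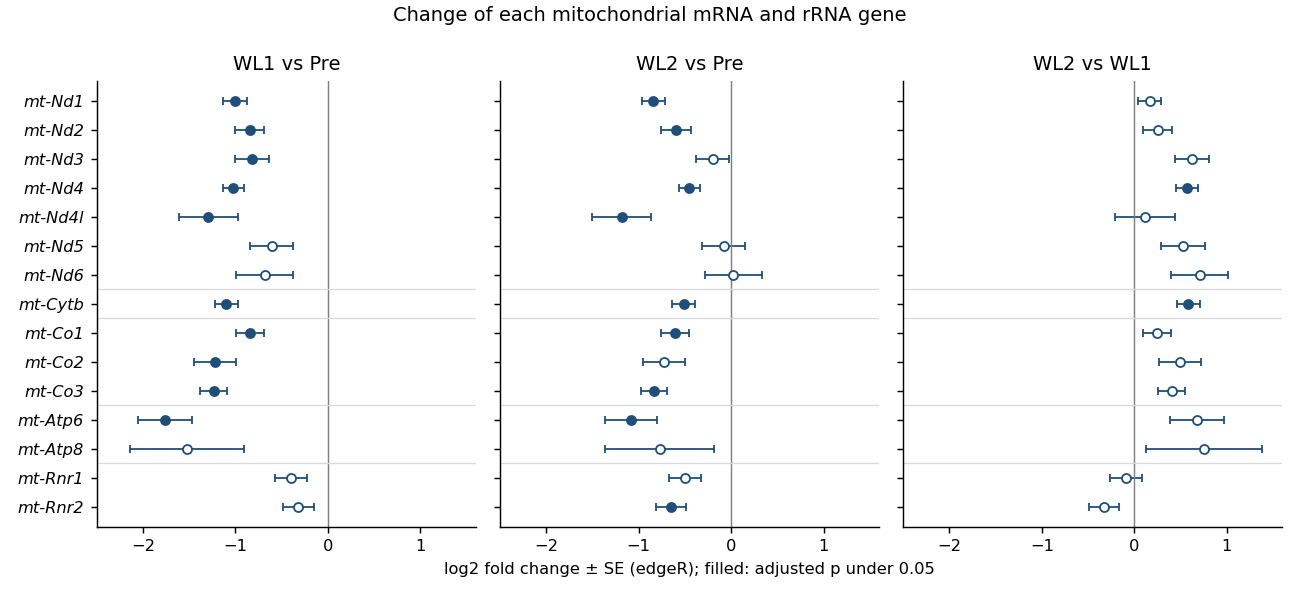
Log2 fold changes (points) with standard errors (bars) of the mitochondrial mRNA and rRNA genes for WL1 against Pre, WL2 against Pre and WL2 against WL1, from one edgeR fit of 9 libraries; filled points passed an adjusted p of 0.05. All 13 mRNA genes lie under 0 for WL1 against Pre (-1.76 to -0.61), and mt-Cytb and mt-Nd4 are the filled points for WL2 against WL1.

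From WL1 to WL2 the mitochondrial mRNAs rose in 2 cases, mt-Cytb and mt-Nd4, and no gene of the 13 was lower. The log2 fold change of WL2 against WL1 was 0.58 ± 0.12 for mt-Cytb (adjusted p = 0.0322, edgeR) and 0.57 ± 0.11 for mt-Nd4 (adjusted p = 0.0297), where 1.31% of all genes tested were higher. Leaving out any one WL1 library, or WL2 replicate 2 or 3, ended both calls. The median of the 13 genes was 0.53, and in 11 of them all WL2 libraries lay above all WL1 libraries, where 13.9% of all genes did so. The 2 genes without that separation were mt-Nd4l and mt-Atp8. As shares of the mitochondrial mRNA counts, mt-Cytb was at 18.1 to 19.2% in Pre, 15.7 to 16.6% in WL1 and 18.4 to 19.6% in WL2, while mt-Nd4 was at 8.55 to 8.90%, 7.92 to 8.10% and 9.06 to 9.46%. The share of mt-Nd1 was 12.1 to 14.1% in Pre, 11.5 to 12.6% in WL1 and 9.96 to 11.4% in WL2, under the other groups at 2 weeks.

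The 7 chromosome 1 copies of mitochondrial genes were counted as genes of their own. Of these, 5 were lower at WL1 (Gm28437, Gm28439, Gm28661, Gm10925 and Gm29216) and 3 at WL2 (Gm28437, Gm28661 and Gm10925), with median log2 fold changes of -1.04 and -0.63, where 4.69% and 6.66% of all genes were lower. Gm28661, the copy of mt-Co2, was at 80.5 to 111 CPM in Pre, 46.4 to 53.1 CPM in WL1 and 67.8 to 74.4 CPM in WL2, and its groups did not overlap. The counts ran from 4 to 6 and from 0 to 3 without single libraries, and were 5 and 0 without Pre replicate 2. When the counts of each copy were added to those of its mitochondrial partner, 10, 8 and 2 mRNA genes were called in the 3 comparisons, as before. The sums hold only reads counted on 1 of these 7 copies or its partner, and the copies changed in the same direction as the partners. Any reads counted on Gm13339, Gm13340 or Gm13341 were not added. The sums therefore cannot show the effect of any reads left uncounted for matching several places.

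The rRNAs of the mitochondrial ribosome, mt-Rnr1 (12S, MT:70-1024) and mt-Rnr2 (16S, MT:1094-2675), were not called at WL1 and had their lowest mean levels at WL2, where mt-Rnr2 was called lower. Of all genes tested, 6.66% were lower at WL2. mt-Rnr1 was at 404, 496 and 312 CPM in Pre, at 275, 367 and 275 CPM in WL1 and at 295, 273 and 291 CPM in WL2. mt-Rnr2 was at 607, 765 and 481 CPM in Pre, at 472, 562 and 451 CPM in WL1 and at 415, 371 and 396 CPM in WL2. For both, Pre and WL1 overlapped and WL2 lay under Pre. The log2 fold change of mt-Rnr2 was -0.32 ± 0.16 at WL1 (adjusted p = 0.26, edgeR) and -0.65 ± 0.16 at WL2 (adjusted p = 0.0336), the latter lost without Pre replicate 1 or 2 or any one WL2 library. That of mt-Rnr1 was -0.40 ± 0.17 at WL1 (adjusted p = 0.189) and -0.50 ± 0.17 at WL2 (adjusted p = 0.102). Without Pre replicate 2 the log2 fold changes were -0.14 and -0.47 for mt-Rnr2 and -0.23 and -0.32 for mt-Rnr1. The counts of mt-Rnr2 per count of mt-Rnr1 were 1.504, 1.54 and 1.54 in Pre, 1.72, 1.53 and 1.64 in WL1 and 1.41, 1.36 and 1.36 in WL2. All 3 WL2 libraries were under the other 6, and the groups differed by the one-sided exact permutation test on the log2 ratio (p = 0.0107, adjusted over 2 tests 0.0214). The sources used here do not say whether the libraries were made by poly(A) selection or rRNA removal, and either can set the level of these RNAs.

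The 22 tRNA genes held 0.0103 to 0.0139% of library counts as group means. Of these, 12 reached the minimum for testing, 6 had 4 to 30 counts in all 9 libraries together, and mt-Tf, mt-Ts1, mt-Td and mt-Tk had none. The 8 genes on the minus strand took 94.9% of the tRNA counts and the 14 on the plus strand 5.13%. mt-Tp alone held 11569 of the 18823 counts on the minus-strand genes. Without the strand setting and the library selection, these counts cannot be taken as levels of the tRNAs of each strand. mt-Tp, the proline tRNA, stood highest at 1032 CPM per kb, followed by mt-Tc at 336, mt-Tn at 185 and mt-Ty at 70.2 CPM per kb, all on the minus strand. Among the plus-strand genes mt-Tl1 was highest at 23.5 CPM per kb. mt-Tp was also the 1 of 12 tested tRNA genes lower at WL1 and at WL2, where 4.69% and 6.66% of all genes were lower. It is shown 5′ to 3′ (MT:15356-15422, minus strand; GENCODE M21, GRCm38) with its anticodon in capitals.
mt-Tp: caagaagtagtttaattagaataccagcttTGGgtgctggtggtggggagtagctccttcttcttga

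mt-Tp was at 95.5, 104 and 76.8 CPM in Pre, at 51.6, 55.4 and 54.4 CPM in WL1 and at 62.5, 58.0 and 64.0 CPM in WL2. Pre lay above both weight-loss groups, which did not overlap each other. Its change was -0.78 ± 0.12 at WL1 (adjusted p = 0.00554, edgeR) and -0.58 ± 0.12 at WL2 (adjusted p = 0.014; lost without WL2 replicate 2). The other 11 tested tRNA genes were not called, with log2 fold changes from -1.30 to 0.22 at WL1 and from -1.19 to 0.43 at WL2, on 47 to 3726 counts each. For WL2 against WL1, 0 of the 14 tested rRNA and tRNA genes passed by edgeR, 0 had an unadjusted p under 0.05 and 0 passed by DESeq2.

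The nuclear subunits of the same complexes were read from the same test. Of 77 nuclear genes of the respiratory chain and ATP synthase, 12 were lower at WL1, against 4.69% of all genes, none was higher, where 2.6% of all genes were, and the median log2 fold change was -0.39. All 77 had a negative log2 fold change, 47 of them at an unadjusted p under 0.05 by edgeR. In 37 of the 77, all WL1 libraries lay under all Pre libraries, where 13.9% of all genes did. By complex, 3 of 36 complex I genes were lower, 0 of 4 complex II genes (2 at an unadjusted p under 0.05), 4 of 9 complex III genes, 1 of 11 complex IV genes and 4 of 17 complex V genes. The corresponding mitochondrially encoded genes were lower in 5 of 7 for complex I, 1 of 1 for complex III, 3 of 3 for complex IV and 1 of 2 for complex V. The median log2 fold changes of nuclear and mitochondrial subunits were -0.42 and -0.85 for complex I, -0.51 and -1.10 for complex III, -0.39 and -1.22 for complex IV and -0.38 and -1.64 for complex V. The mitochondrial medians of complexes IV and V rest on mt-Co2, mt-Atp6 and mt-Atp8, low genes within the copied stretch whose levels are uncertain. The more abundant complex IV gene, mt-Co1, was at -0.85. The difference between the 2 kinds of subunit was not tested. The count of 12 nuclear genes was sensitive to single libraries: leaving out Pre replicate 1, WL1 replicate 1 or WL1 replicate 3 brought it to 1, and leaving out WL2 replicate 2 brought it to 2. Dropping WL1 replicate 2 gave 4, Pre replicate 2 gave 5, WL2 replicate 3 gave 6 and Pre replicate 3 gave 19, and DESeq2 called 30.

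**Figure D5:**
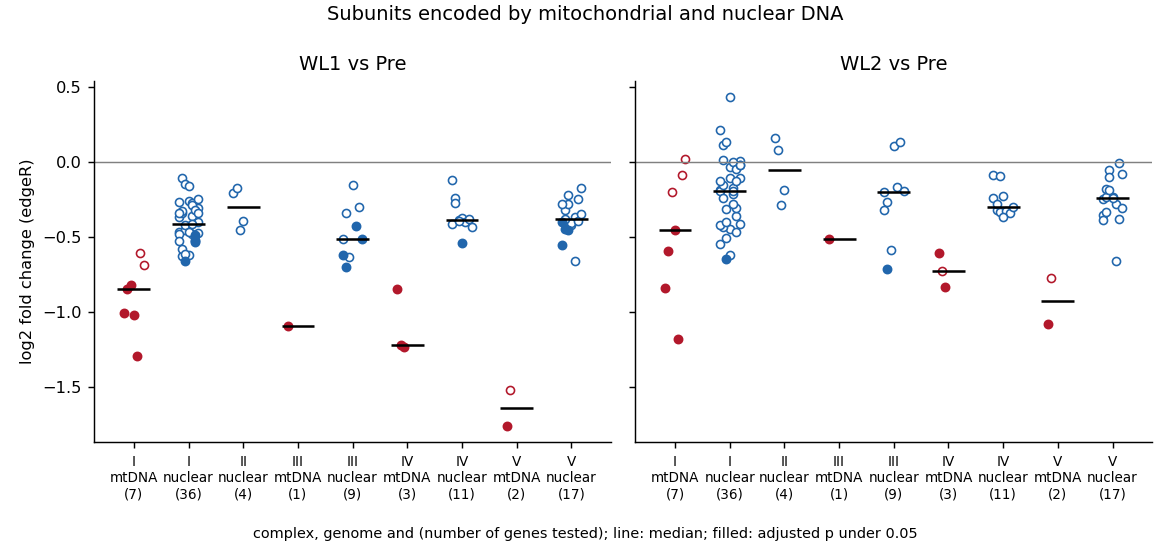
Log2 fold changes of single subunits (points) of each respiratory complex, encoded in mitochondrial DNA or in the nucleus, for WL1 against Pre and WL2 against Pre, with lines at the median of each set and filled points past an adjusted p of 0.05. The mitochondrial medians at WL1 (-0.85, -1.10, -1.22 and -1.64 for complexes I, III, IV and V) lie under the nuclear ones (-0.42, -0.51, -0.39 and -0.38). The mitochondrial medians of complexes IV and V rest on mt-Co2, mt-Atp6 and mt-Atp8, whose levels are uncertain.

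Among the nuclear subunits called at WL1, those with the largest changes in complex III were Uqcrq, a small structural subunit, at -0.70 (adjusted p = 0.0419, edgeR), cytochrome c1 (Cyc1) at -0.62 (0.0171) and the Rieske iron-sulphur protein Uqcrfs1 at -0.51 (0.0378). In complex I they were Ndufa11 at -0.66 (adjusted p = 0.00739, edgeR), the NADH-binding subunit Ndufv1 at -0.53 (0.0316) and Ndufab1 at -0.48 (0.0339). In complex V they were the c-ring gene Atp5g3 at -0.56 (adjusted p = 0.0489, edgeR), Atp5c1 at -0.45 (0.0292) and the catalytic beta subunit Atp5b at -0.45 (0.0304). Ndufa4, a subunit associated with complex IV, was at -0.54 (adjusted p = 0.0449, edgeR). At WL2, Ndufa11 (-0.65, adjusted p = 0.00487, edgeR) and Uqcrq (-0.72, 0.0317) were lower, and the median of the 77 genes was -0.23. These 2 of 77 were a smaller share than the 6.66% of all genes that were lower at WL2, and 1 to 3 passed when single libraries were left out. Ndufa11 was at 45.3 to 51.5 CPM in Pre, 27.6 to 32.5 CPM in WL1 and 28.7 to 32.8 CPM in WL2, so that both weight-loss groups lay under Pre. Of the 77, Ndufs7 (0.59, adjusted p = 0.0333, edgeR) and Uqcrc2 (0.44, 0.0307) were higher at WL2 than at WL1, both named because they passed, where 1.31% of all genes were higher, and the median of the set was 0.18. Both calls ended when any one WL1 library, or WL2 replicate 2 or 3, was dropped.

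Of the genes that copy and transcribe mitochondrial DNA, 1 passed the test in a comparison with Pre. Of 10 genes of mitochondrial transcription, 0 passed in either comparison with Pre by edgeR (0 at WL1 and 4 at WL2 at an unadjusted p under 0.05). Tfam, which packages mitochondrial DNA and activates its promoters, was at 23.6 to 27.2 CPM in Pre, 22.04 to 24.6 CPM in WL1 and 28.7 to 30.9 CPM in WL2. WL1 overlapped Pre and WL2 lay above both, with log2 fold changes of -0.09 ± 0.11 (adjusted p = 0.648, edgeR) and 0.25 ± 0.11 (adjusted p = 0.164). The mitochondrial RNA polymerase Polrmt was at 24.7 to 28.8 CPM over all 9 libraries, with log2 fold changes of -0.05 and -0.03. Of 12 genes of mitochondrial DNA maintenance, 0 passed at WL1 (2 at an unadjusted p under 0.05), and the exonuclease Mgme1 was higher at WL2 (0.59, adjusted p = 0.0102, edgeR; lost without WL2 replicate 2), where 3.35% of all genes were higher. Lrpprc, which binds and stabilises mitochondrial mRNAs, was at 0.25 and 0.29 in log2 fold change and not called. Of the 22 genes of mitochondrial RNA processing and stability, Hsd17b10, a subunit of the RNase P that cuts the precursor, was lower at WL1 (-0.51, adjusted p = 0.0244, edgeR), the oligoribonuclease Rexo2 at WL1 (-0.46, 0.0402) and WL2 (-0.54, 0.0158), and Tbrg4 at WL2 (-0.42, 0.0327). That made 2 of the 22 lower in each comparison with Pre, where 4.69% (WL1) and 6.66% (WL2) of all genes were lower. The median log2 fold changes of the 22 were -0.01 and 0.06. Without single libraries, 0 to 2 of the 22 genes passed in each comparison with Pre.

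Among 77 tested genes of mitochondrial ribosomal proteins, 8 were lower at WL1, where 4.69% of all genes were, and 3 at WL2, a smaller share than the 6.66% of all genes. The medians were -0.26 and -0.15. The largest changes at WL1 were Mrps6 (-0.79, adjusted p = 0.00497, edgeR), Mrpl28 (-0.69, 0.0182) and Mrpl12 (-0.62, 0.04), and those at WL2 were Mrps6 (-0.54, 0.0197), Mrpl28 (-0.54, 0.0377) and Mrpl20 (-0.53, 0.0178). These counts ran from 1 to 7 and from 0 to 5 when single libraries were left out (4 and 2 without Pre replicate 2), and 15 and 9 genes passed by DESeq2. None of 13 translation factors passed by edgeR (3 at WL1 and 2 at WL2 at an unadjusted p under 0.05). Of 10 regulators of mitochondrial biogenesis, 0 passed at WL1, with 0 at an unadjusted p under 0.05, and the oestrogen-related receptor Esrra was lower at WL2 (-0.55, adjusted p = 0.0274, edgeR; not called without Pre replicate 1 or 2 or any one WL2 library). Ppargc1a, the coactivator PGC-1α, was at 2.03 to 2.83 CPM in Pre, 1.14 to 1.70 CPM in WL1 and 2.19 to 2.66 CPM in WL2, and its log2 fold changes of -0.62 ± 0.28 and 0.11 ± 0.28 did not pass the test (adjusted p = 0.213 and 0.828, edgeR). Nrf1 was at 0.04 and 0.05 in log2 fold change. Of 14 proteins used as measures of mitochondrial mass, citrate synthase (Cs) was lower at WL1 (-0.62, adjusted p = 0.00603, edgeR) and the import channel Timm23 at WL1 (-0.48, 0.0363) and WL2 (-0.50, 0.0229). These 2 and 1 of 14 stand against 4.69% and 6.66% of all genes lower at WL1 and WL2. Medians of the 14 were -0.21 and -0.15. Without single libraries, 1 to 2 of them passed at WL1 and 0 to 1 at WL2. Cs was at 361 to 388 CPM in Pre, 237 to 263 CPM in WL1 and 293 to 320 CPM in WL2, and its groups did not overlap.

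Levels of cell type markers also differed between the groups, and their part in the mitochondrial values was not tested. The counts of called markers stand against 4.69% of all genes lower and 2.6% higher at WL1, and 6.66% lower and 3.35% higher at WL2. The 10 adipocyte markers summed to 29539 to 37433 CPM in Pre, 20939 to 27509 CPM in WL1 and 30718 to 33732 CPM in WL2; 4 of the 10 (Plin1, Lep, Cidec and Retn) were lower at WL1, with a median log2 fold change of -0.46, and 2 were lower (Lep and Cidec) and 1 higher (Cfd) at WL2, with a median of 0.08. Without single libraries, 3 to 4 adipocyte markers were called at WL1 and 2 to 3 at WL2. The 10 macrophage markers summed to 1461 to 2665 CPM in Pre, 2687 to 5032 CPM in WL1 and 1644 to 2879 CPM in WL2, and 1 of the 10, Msr1, was higher at WL1, a count that ran from 0 to 3 without single libraries and was 0 without Pre replicate 2. At WL1, 9 of the 10 macrophage markers had a positive log2 fold change, 5 of the 10 had an unadjusted p under 0.05 by edgeR, and 4 passed by DESeq2. Their median log2 fold change was 0.70 at WL1 and 0.08 at WL2. The 10 fibroblast markers summed to 4243 to 6041, 4130 to 7356 and 3954 to 4446 CPM, and the 10 endothelial markers to 1865 to 2760, 1528 to 2880 and 2062 to 2437 CPM, in the same order of groups. None of either list passed at WL1 by edgeR or DESeq2 (2 fibroblast and 0 endothelial markers at an unadjusted p under 0.05), and Dcn was higher and Col3a1 lower at WL2. The fibroblast count at WL2 ran from 0 to 4 without single libraries and was 0 without Pre replicate 2 or WL2 replicate 2 or 3. Brown adipocyte markers, 8 genes of a cell rich in mitochondria, summed to 28.7 to 38.7 CPM in Pre, 15.9 to 20.6 CPM in WL1 and 20.2 to 24.4 CPM in WL2, and the uncoupling protein Ucp1 that defines that cell was at 0 to 0.28 CPM. Of these 8, Cox8b was lower at WL1, and Cox8b, Cox7a1 and Dio2 at WL2, counts that fell to 0 without single libraries. Cox8b and Cox7a1 encode complex IV subunits but were placed in this list only, so the nuclear complex IV counts above leave them out. The 10 skeletal muscle markers summed to 68.7 to 81.7, 35.8 to 44.5 and 45.9 to 61.9 CPM, with the myosin Myh4 at 0 and Acta1 lower at WL1, a count that ran from 0 to 2 without single libraries. The sum did not stand for the list. Of the 8 muscle markers tested, 6 had a positive log2 fold change at WL1, with a median of 0.45 and a range from -2.41 to 1.47. The marker genes given here as lower or higher are named because they passed the test.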

How the data were processed

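Epididymal adipose tissue RNA was sequenced in 9 libraries, 3 per group, by the submitters, whose processing notes name CASAVA, HISAT, HISAT2 and TopHat2 with GRCm38 and mm10; the sources used here do not give library selection, strand, read length, annotation or the treatment of multiply matching reads. The deposited table holds raw read counts per gene, and FPKM values computed by the authors. The mitochondrial coordinates of the table equalled GENCODE M21 for 37 of 37 genes, from which sequences were taken; nuclear coordinates of the table were not used.

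Counts were fitted with edgeR 4.0.16 (quasi-likelihood, TMM, 9 libraries in 1 fit; genes with at least 0.5 CPM in 1 or more libraries), with two-sided tests, Benjamini-Hochberg adjustment and a threshold of 0.05. SE is the log2 fold change divided by the square root of F. Per-library ratios were tested by exact permutation. Alternatives used DESeq2 1.42.0, limma 3.58.1 on log2(FPKM + 1) and log2(FPKM + 0.1), other scalings and filters, a replicate block and leaving out each library. The fit was tested on simulated data. No libraries were duplicates. Named genes were all mRNA, rRNA and tested tRNA genes, 5 regulators (Tfam, Polrmt, Lrpprc, Ppargc1a and Nrf1), and up to 3 called members per nuclear list with the largest change. The members and lists were chosen with earlier results of these data known.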

Additional observations from a re-analysis of the deposited data

Results flagged for a closer look

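The changes from Pre at 1 and 2 weeks differed for mt-Cytb and mt-Nd4 by a direct test of WL2 against WL1 in the edgeR fit. The difference was 0.58 on the log2 scale for mt-Cytb (adjusted p = 0.0322, edgeR) and 0.57 for mt-Nd4 (adjusted p = 0.0297, edgeR), and in both genes all 3 WL2 libraries were above all 3 WL1 libraries. Each difference passed the threshold under 12 of 20 alternatives, with adjusted p from 5.65e-05 to 0.293 for mt-Cytb and from 2.71e-05 to 0.142 for mt-Nd4.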

How the results depend on the processing

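Over 15 mRNA and rRNA genes, 3 comparisons and 20 alternatives, 766 of the values kept their side of the threshold, 121 lost the call and 13 gained one. Of the 766, 757 kept their direction and 9 changed sign without being called: for WL2 against Pre mt-Nd5 in 4, mt-Nd6 in 2 and mt-Nd3 in 1, and for WL2 against WL1 mt-Nd4l in 1 and mt-Rnr1 in 1. The mRNA genes called in WL1 against Pre, WL2 against Pre and WL2 against WL1 numbered 10, 8 and 2. They numbered 6, 1 and 0 with limma on log2(FPKM + 1) and the same with 0.1 added, 10, 2 and 2 with all scaling factors at 1, and 8, 2 and 5 when only the compared groups were fitted. With a replicate block they numbered 9, 2 and 0, but same-numbered libraries did not deviate together (correlations -0.277 to 0.107, 1 of 9 over 0.1), so the numbers do not pair the libraries. Leaving out single libraries gave 7 to 11, 2 to 8 and 0 to 4. The WL2 against Pre count was 3 without Pre replicate 1, Pre replicate 2 or WL1 replicate 2, 5 without WL1 replicate 1 or 3, 2 without WL2 replicate 1 or 2 and 4 without WL2 replicate 3; the WL2 against WL1 count was 4 without Pre replicate 2 and 0 without any one WL1 library or WL2 replicate 2 or 3. With all factors at 1 the median of all genes moved to 0.12 (WL1) and 0.16 (WL2), and the share of calls that were lower fell from 64.3% to 39.0% and from 66.5% to 35.8%; for WL2 against WL1 it was 64.5%, 51.7% with upper-quartile factors and 55.6% with factors at 1. As FPKM, the mRNA share was 8.18% in Pre, 4.91% in WL1 and 6.35% in WL2. The exact p of the mt-Nd6 share ran from 0.0393 (without Pre replicate 2) to 0.4, and that of the rRNA ratio from 0.00357, the smallest possible, to 0.0143. Adding the counts of the chromosome 1 copies to their partners, and taking the mt-Nd6 share over the 7 abundant mRNAs (exact permutation p = 0.196), were chosen after seeing the data and changed no count or call. The added copies do not bring back any reads left uncounted, so their effect remains unknown. mt-Atp8 had 105 counts in all 9 libraries together, and 10 tRNA genes did not reach the minimum for testing. The cause of these low counts was not tested.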
